A study of Sus scrofa with 40 samples.

Results

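The genes described here encode solute carriers, the largest group of membrane transporters, measured in cultured endothelial cells from pig coronary arteries. A probe set is the group of array probes that reads 1 transcript. Members were the probe sets whose gene title in the authors' deposited tables contains "solute carrier" or whose symbol begins with SLC and a digit, and 46 of 23999 gene probe sets met this rule. They carry 37 gene names in 12 roles. All 46 met the rule through the title and 23 also through the symbol. Of the 46, 39 were named by symbol and 6 by title. The remaining probe set has only a family title, solute carrier family 12, and is called the SLC12 family probe set below. Another 41 probe sets name a solute carrier only in the array's target description and were not counted. The authors' tables list 11814 probe sets with titles, and only these could become members. Those tables come from comparisons of these same cultures, while shares over all probe sets below also include unlisted ones.

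Solute carriers move amino acids, sugars, nucleosides, metals and ions across membranes, either down a gradient or by coupling to another ion. Some amino acid carriers are pairs of a heavy chain, such as SLC3A1 or SLC3A2, and a light chain of the SLC7 family, such as SLC7A7. In endothelium this family sets, among other things, the supply of amino acids and the removal of adenosine.

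The samples were 40 primary cultures from female farm pigs aged 4 months, 1 regenerated and 1 native culture in each of 20 pairs. The diets were high cholesterol (CHL, 6 pairs), a diet rich in polyunsaturated fatty acids, described as fish oil (FO, 6 pairs), and control (8 pairs). Regenerated cells had grown back on a stretch of the left anterior descending artery that had been stripped of its lining, while the native cultures were from the left circumflex artery. All cells were scraped from the vessel, grown for 10 days in medium with 15% serum and used without passage. Because the arteries always differed, regeneration and artery cannot be told apart in any comparison of regenerated with native cells. Each culture is a bulk sample, in which fewer cells of a type and less RNA per cell cannot be told apart. The labels of 5 control pairs and of FO pair 6 do not show that both cultures came from the same animal.

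Values are array signals, in which every array has a 2% trimmed mean of 500.1, and differences are on the log2(signal + 16) scale. The regenerated arrays of control pair 6 and FO pair 3 had actin 3'/5' signal ratios of 264 and 422, a sign of degraded RNA, against at most 6.89 on the other arrays. Of 12 listed endothelial markers 7 were measured, and their mean log2 level lay between 8.71 and 8.80 in every group. Of 11 smooth muscle markers 6 were measured, and the summed signal of these 6 ran from 4429 to 22106 in regenerated and from 3954 to 17843 in native CHL cells. It ran from 3110 to 30540 in regenerated and from 2944 to 14384 in native FO cells, and from 2465 to 32209 in regenerated and from 1602 to 25962 in native control cells. Summed signals of the 3 leukocyte markers measured of 9 lay between 24.1 and 170 on every array, and no erythroid marker was measured. Of 6 cardiomyocyte markers 1 was measured. Its median signal in regenerated and native cells was 17.9 and 21.5 in CHL, 43.8 and 11.3 in FO, and 20.8 and 16.6 in control. Its regenerated minus native difference in the mean of the 3 diets was 0.50. Of 9 fibroblast markers 5 were measured, and their mean log2 level was 6.82 in regenerated and 7.80 in native CHL cells, 6.92 and 7.88 in FO cells, and 6.85 and 7.10 in control cells.

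Of the 46 members, 40 passed the filter on dim probe sets, which kept probe sets with a mean level above the 25th percentile, and these 40 cover 33 gene names. The 6 left out were SLC22A23, SLC22A8, SLC7A9, SLC16A1 and the second probe sets of SLC30A5 and SLC1A1. SLC16A1, a lactate carrier, had a median signal of 13.7 over the 40 arrays, and SLC7A9, the usual light chain partner of SLC3A1, had a median signal of 1.95. Spread between arrays was close to that of the array as a whole, with a median SD of 0.50 on the log2 scale over the members and 0.46 over all tested probe sets. SLC1A1 varied most, with an SD of 1.93, followed by SLC29A1 with 1.13 and SLC39A14 with 1.0 for its second probe set.

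Where a gene had several probe sets, their levels over the 40 arrays, which are pairs of cultures and not independent, moved together to different degrees. Pearson's r was 0.87 for SLC1A1, 0.83 for SLC7A7, 0.82 for SLC39A14 and 0.77 for SLC3A1. It was 0.40 for SLC35F5, 0.34 for SLC30A5 and 0.003 for the mitochondrial carrier SLC25A43. The 3 probe sets of the vesicular monoamine transporter SLC18A2 gave r between 0.10 and 0.68, so values of SLC18A2 and SLC25A43 depend on the probe set read.

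Over the 3 diets taken with equal weight, regenerated cells had higher SLC1A1 and SLC3A1 than native cells of the same pair, and lower SLC25A6. SLC1A1 carries glutamate, aspartate and cysteine into cells. SLC3A1 is the heavy chain of a carrier of cystine and dibasic amino acids, and SLC25A6 exchanges ADP for ATP across the inner mitochondrial membrane. They were among the 4 members of the 40 tested whose adjusted p in limma was under 0.05, against 2.67% of all tested probe sets. By direction, 3 members were higher, against 1.48% of all probe sets, and 1 was lower, against 1.19%. At an unadjusted p under 0.05, 15 of 40 members passed, against 23.4% of all probe sets. Of these 10 were higher, against 11.5%, and 5 lower, against 11.9%. The median difference was 0.07 over the 40 members and -0.0046 over all tested probe sets. Because members come only from probe sets in the authors' comparison tables, these shares cannot show that solute carriers changed more often than other genes.

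**Figure D1:**
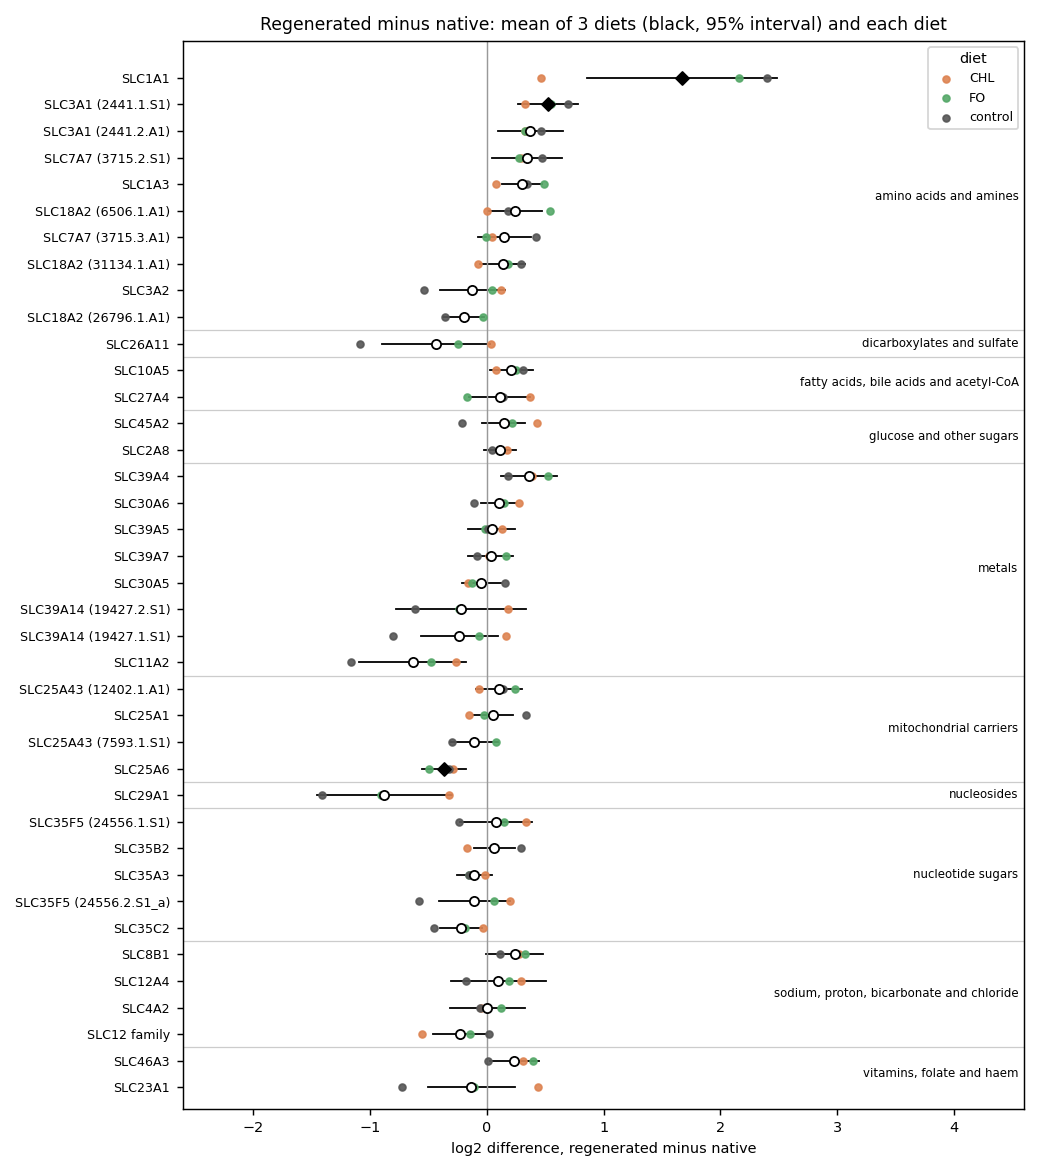
Log2 difference, regenerated minus native cells, for tested members in order of role (names on the left, roles on the right). Black symbols with lines are the mean of the 3 diets with its 95% interval, filled diamonds mark SLC1A1, SLC3A1 and SLC25A6, past the threshold, and coloured points are CHL, FO and control. SLC1A1 lies farthest to the right, with 0.47 in CHL, 2.16 in FO and 2.40 in control pairs, and SLC29A1 lies farthest to the left.

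Among the amino acid and amine carriers, 8 of 10 tested probe sets were higher in regenerated cells in the mean of the 3 diets, with a median difference of 0.27, against 48.9% higher among all tested probe sets. Several of these probe sets read the same gene, 3 of them SLC18A2. Of the 10, 2 were past the threshold, SLC1A1 and 1 probe set of SLC3A1. In CHL pairs SLC1A1 had signals of 44.9 to 496 in regenerated cells (median 160) and 32.6 to 569 in native cells (median 101). In FO pairs it had 54.4 to 1965 in regenerated cells (median 918) and 19.7 to 666 in native cells (median 64.3). In control pairs it had 47.7 to 2104 in regenerated cells (median 1432) and 5.11 to 2003 in native cells (median 94.9). The groups overlapped in each diet, and the native culture of control pair 8 was as bright as the regenerated cultures.

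The difference in SLC1A1 was 1.67 (SE 0.39), 3.19-fold, with an adjusted p of 0.0260 in limma, and regenerated cells were higher in 16 of 20 pairs. Pair differences ran from -0.85 to 2.22 in CHL, from -0.08 to 5.80 in FO and from -0.71 to 4.89 in control pairs. The second, dimmer SLC1A1 probe set was not tested, and its pair differences had r = 0.77 with those of the first.

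SLC3A1 had signals of 65.8 to 261 in regenerated CHL cells (median 138) and 67.1 to 131 in native CHL cells (median 101). In FO pairs regenerated cells had 75.8 to 214 (median 157) and native cells 47.1 to 157 (median 103). In control pairs regenerated cells had 147 to 338 (median 270) and native cells 93.7 to 196 (median 151). Regenerated cells were higher in 16 of 20 pairs although the ranges overlapped in every diet. The difference over the 3 diets was 0.52 (SE 0.12), 1.44-fold, with an adjusted p of 0.0258 in limma. The other SLC3A1 probe set had a difference of 0.37 (SE 0.13), and its adjusted p of 0.109 was not past the threshold.

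SLC1A3, another glutamate carrier, came next, with a difference of 0.30 (SE 0.08) and an adjusted p in limma of 0.0501, just outside the threshold, and it was higher in 16 of 20 pairs. SLC7A7, the light chain that exports dibasic amino acids, had differences of 0.35 (adjusted p 0.156) and 0.15 (adjusted p 0.399) in its probe sets by limma. Its partner chain SLC3A2 had -0.12 (SE 0.14, adjusted p 0.605 in limma). Of the 10 probe sets of amino acid and amine carriers, several of which read the same gene, 6 were higher and 1 lower at an unadjusted p under 0.05. The lower one was a probe set of the amine carrier SLC18A2. Among all probe sets 11.5% were higher and 11.9% lower.

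The mitochondrial carrier SLC25A6 had signals of 6406 to 14150 in regenerated CHL cells (median 7316) and 6438 to 14410 in native CHL cells (median 9708). In FO pairs regenerated cells had 5466 to 9421 (median 7689) and native cells 8291 to 14036 (median 10278). In control pairs regenerated cells had 4538 to 9390 (median 7515) and native cells 7329 to 12880 (median 9193). It was higher in regenerated cells in only 3 of 20 pairs, while the ranges overlapped in each diet. The difference was -0.37 (SE 0.09), 1.29-fold lower, with an adjusted p of 0.0333 in limma. The other 3 tested mitochondrial carrier probe sets did not pass.

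**Figure D2:**
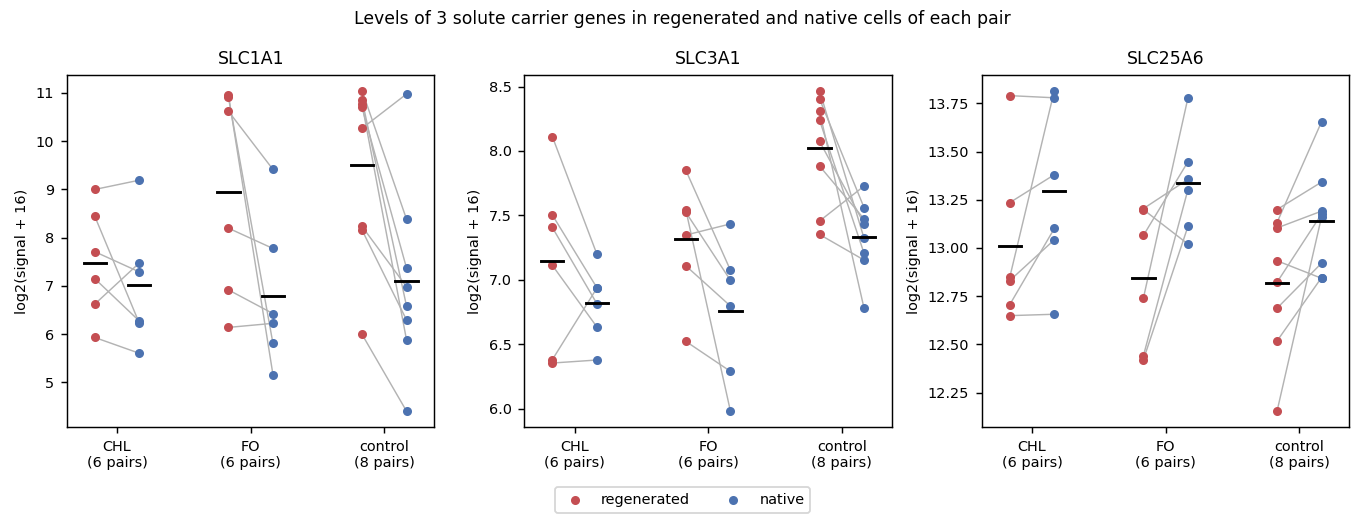
Levels on the log2(signal + 16) scale of SLC1A1, SLC3A1 and SLC25A6, with regenerated cells on the left and native cells on the right of each diet. Points are cultures, grey lines join the cultures of a pair, and black bars are group means. Most lines fall from left to right for SLC1A1 and SLC3A1, and most rise for SLC25A6.

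The calls lay near the threshold and used the pairing. Without the replicate block, that is with the cultures treated as unpaired, none of the 40 members was past limma's threshold, against 0.322% of all probe sets. None was with only the 14 pairs whose labels carry the same animal number, against 0.144%. In those 14 pairs the differences were 1.13 for SLC1A1, 0.47 for SLC3A1 and -0.38 for SLC25A6. Without the animals with degraded RNA, SLC1A1 (1.69, adjusted p 0.0543 in limma) and SLC25A6 (-0.32, adjusted p 0.0792 in limma) were no longer past it, and SLC3A1 still was. With each animal left out in turn 1 to 7 members passed, with 1 without CHL pair 3 (against 1.22% of all probe sets) or FO pair 1 (1.14%) and 7 without control pair 8 (6.21%). SLC25A6 was not past limma's threshold with any 1 of 8 different animals left out, at differences of -0.38 to -0.32 and adjusted p of 0.0524 to 0.0823. SLC3A1 was not past it without CHL pair 3, FO pair 1 or FO pair 6, at 0.46 to 0.51 and adjusted p of 0.0518 to 0.0598 in limma. SLC1A1 was not past it without CHL pair 2, CHL pair 5 or FO pair 1, at 1.48 to 1.65 and adjusted p of 0.0521 to 0.0630 in limma.

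The change in SLC1A1 moved with smooth muscle genes. Of the 6 smooth muscle markers measured, all 6 were higher in regenerated cells in the mean of the 3 diets, and PLN (0.54, adjusted p 0.0308) and MYL9 (0.77, adjusted p 0.0476) were past the threshold in limma. Across the 20 pairs, the SLC1A1 difference and the mean difference of the 6 markers had a Pearson r of 0.89 (permutation p 1e-05, the smallest that 100000 permutations give, adjusted 4e-05 over 4 relations) and a Spearman rho of 0.84 (permutation p 1e-05, adjusted 4e-05). Without the 2 pairs farthest from the median of the marker shift r was 0.85 (permutation p 3e-05). The largest marker shifts were in control pair 5 (3.39), FO pair 6 (2.70), control pair 4 (2.30) and control pair 6 (1.83). In control pairs 4 and 5 and FO pair 6 the cultures' deviations from their group means correlated negatively, and control pair 6 holds degraded RNA. The part of these pairs in this relation and in that of SLC3A1 was not tested. The permutations, here and below, shuffled all 20 pairs across diets, so their p also counts differences between diets. Only members past the threshold in these same pairs were read this way. The share of all probe sets with such a relation was not tested. Within diets r was 0.53 in 6 CHL pairs, 0.96 in 6 FO pairs and 0.89 in 8 control pairs. The mean of the 3 diets weighs CHL pairs, in which rho was only 0.09, like the other diets.

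For SLC3A1 the same relation gave r = 0.70 (permutation p 0.00055, adjusted 0.0011) and rho = 0.55 (permutation p 0.0129, adjusted 0.0259), and r = 0.48 without the 2 farthest pairs (permutation p 0.0434). Within diets r was -0.05 in CHL, 0.88 in FO and 0.79 in control pairs, so the relation did not hold within CHL pairs. SLC25A6 (r = -0.43, permutation p 0.0567, adjusted 0.0756; rho = -0.37, permutation p 0.104, adjusted 0.139) did not pass. Without the 2 farthest pairs its r was -0.35 (permutation p 0.149), and within diets its r ran from -0.78 to 0.29. The part of smooth muscle cells in the SLC1A1 and SLC3A1 differences was not tested.

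**Figure D3:**
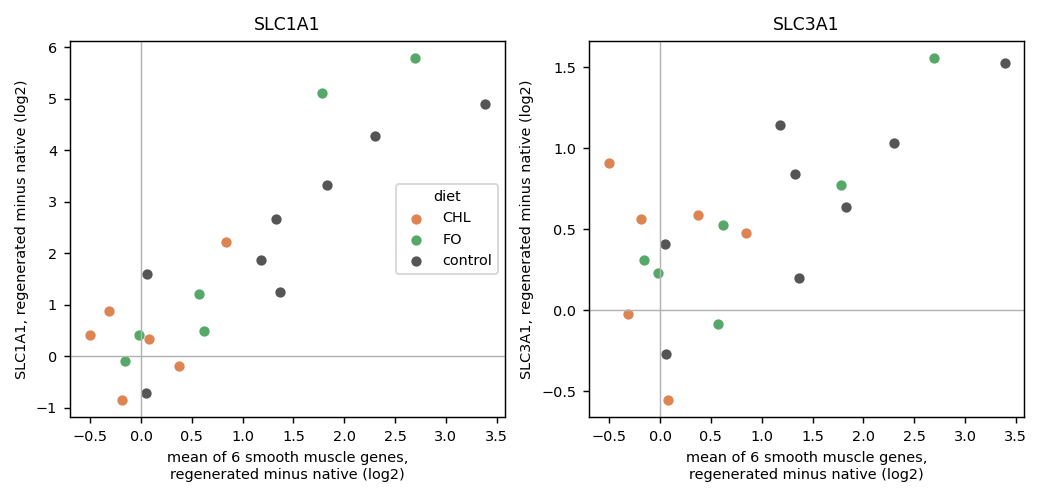
Regenerated minus native difference (log2) of SLC1A1 (left panel) and SLC3A1 (right panel) against the mean difference of 6 smooth muscle markers, 1 point for each of 20 pairs, coloured by diet. SLC1A1 points rise from the lower left to the upper right, with r = 0.89, and SLC3A1 points scatter more, with r = 0.70.

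Within the 8 control pairs, the members of smallest p had positive differences for SLC1A1 and SLC3A1 and negative differences for several metal, nucleoside and anion carriers. None of the 40 members passed limma's adjusted threshold, against 0.289% of all probe sets. At an unadjusted p under 0.05, 20 of 40 members passed, against 27.2% of all probe sets, 10 higher, against 11.4%, and 10 lower, against 15.8%. The limit from the choice of members, given above, applies to these shares too. SLC1A1 had 2.40 (SE 0.61, 5.27-fold, adjusted p 0.0582 in limma, higher in 7 of 8 pairs), and SLC3A1 had 0.69 (SE 0.19, adjusted p 0.0628 in limma, higher in 7 of 8 pairs).

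Of the metal carriers, SLC11A2, which brings iron and other divalent metals into cells, had signals of 2.16 to 113 in regenerated control cells (median 41.8) and 23.7 to 275 in native control cells (median 112). Its difference in control pairs was -1.16 (SE 0.35, adjusted p 0.0668 in limma), with regenerated cells higher in 1 of 8 pairs. SLC39A14, a carrier of zinc and other metals, had -0.80 (SE 0.25, adjusted p 0.0712 in limma) in its first and -0.61 (adjusted p 0.363 in limma) in its second probe set. Without control pair 3, 8 members were past the threshold in control pairs, against 8.05% of all probe sets, and without control pair 8, 9 members were, against 13.3%. Both settings included SLC1A1, SLC3A1, SLC11A2, SLC29A1 and SLC26A11.

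SLC29A1, the equilibrative nucleoside transporter that takes up adenosine, had signals of 4.49 to 297 in regenerated control cells (median 66.7) and 52.8 to 489 in native control cells (median 254). Its difference was -1.41 (SE 0.44, 2.65-fold lower, adjusted p 0.0702 in limma). The sulfate carrier SLC26A11 had a difference of -1.09 (SE 0.35, adjusted p 0.0734 in limma), and SLC23A1, which carries vitamin C, had -0.73 (SE 0.28, adjusted p 0.112 in limma). SLC3A2 had -0.54 (SE 0.21, adjusted p 0.115 in limma) in these pairs.

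Control pairs differed widely among themselves. SLC29A1 differences were -3.38, -2.86 and -3.56 in pairs 4, 5 and 6, while the other 5 control differences lay between -0.99 and 0.20. In pairs 4 and 5 SLC11A2 differences were -2.35 and -3.13, and SLC26A11 differences were -1.78 and -2.08. The lowest SLC26A11 difference was -3.60 in pair 6, and without that pair its mean in control pairs was -0.73, against -1.09 with it. The regenerated arrays of pairs 4 and 5 had actin 3'/5' ratios of 4.48 and 6.89, the highest after both arrays with degraded RNA, against 1.39 and 1.43 in their native arrays. The part of RNA quality in these differences was not tested. Pairs 4 and 5 are among the pairs whose native and regenerated cultures varied least alike, with correlations of -0.12 and -0.03 between the deviations of the cultures from their group means, against a median of 0.51 over the 20 pairs, and pair 6 holds degraded RNA. By label style, the mean SLC11A2 difference was -1.65 in the 5 control pairs labelled with MA numbers and -0.34 in the 3 labelled by artery. For SLC1A1 these means were 2.94 and 1.5, for SLC3A1 0.67 and 0.73, for SLC25A6 -0.26 and -0.42, and for SLC29A1 -1.46 and -1.31. The part of the label style in these differences was not tested.

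**Figure D4:**
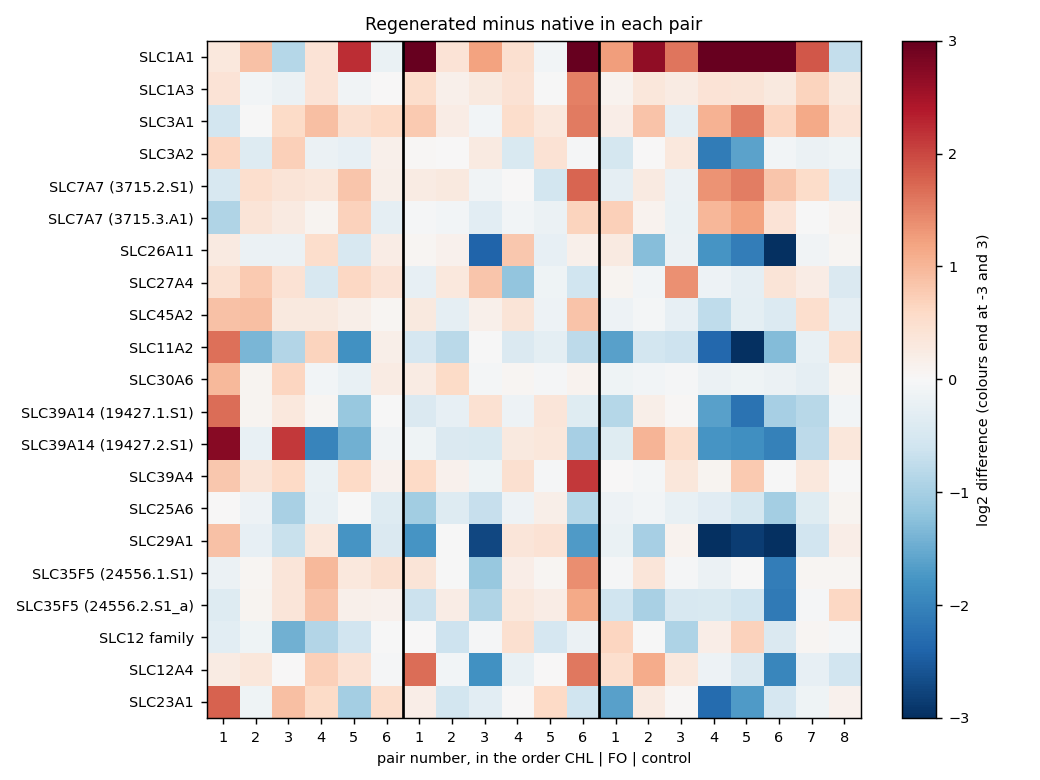
Regenerated minus native difference (log2, red higher and blue lower in regenerated cells) of named probe sets in each pair, with 6 CHL pairs, 6 FO pairs and 8 control pairs from left to right. Colours end at -3 and 3. Control pairs 4, 5 and 6 hold most of the dark blue of SLC29A1, SLC26A11 and SLC11A2, and the red of SLC1A1 is darkest in control pairs 4, 5 and 6 and FO pairs 1 and 6.

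Within the 6 CHL pairs no solute carrier was past the threshold, and SLC1A1 was not among the members of smallest p. None of the 40 members had an adjusted p under 0.05 in limma, against 0.00556% of all probe sets, and 3 had an unadjusted p under 0.05, against 6.36%. The SLC12 family probe set, of a family that moves chloride together with sodium or potassium, had signals of 24.1 to 141 in regenerated CHL cells (median 73.4) and 49.5 to 218 in native CHL cells (median 109). Its difference was -0.56 (SE 0.20, adjusted p 0.733 in limma), and regenerated cells were lower in all 6 pairs. SLC45A2, a sugar and proton carrier best known from pigment cells, had 0.43 (SE 0.16, adjusted p 0.756 in limma), and regenerated cells were higher in 6 of 6 pairs. SLC1A1 had 0.47 (SE 0.71) with a 95% interval from -1.0 to 1.94, from a spread shared by the 3 diets.

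Within the 6 FO pairs, which also enter the mean of the 3 diets, no solute carrier was past the threshold. None of the 40 had an adjusted p under 0.05 in limma, against 0.0389% of all probe sets, and 8 had an unadjusted p under 0.05, against 8.66%, of which 7 were higher, against 4.83%. SLC1A3 had 0.49 (SE 0.15, adjusted p 0.372 in limma), and without FO pair 6, in which it was 1.52, the difference was 0.28. SLC1A1 had 2.16 (SE 0.71, adjusted p 0.419 in limma), and SLC25A6 had -0.49 (SE 0.16, adjusted p 0.424 in limma). These SE rest on a spread shared by the 3 diets. The SLC1A1 pair differences themselves had an SD of 2.59 in FO, 1.04 in CHL and 1.80 in control pairs. SLC1A1 differences in FO were 5.11 and 5.80 in pairs 1 and 6 and between -0.08 and 1.21 in the other 4 pairs.

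Whether diet altered the difference between regenerated and native cells was asked by setting the differences in CHL and in FO pairs against those in control pairs. No member passed in either comparison. In CHL against control pairs none of 40 had an adjusted p under 0.05 in limma, against 0% of all probe sets, and 10 had an unadjusted p under 0.05, against 14.6%. The change in the regenerated effect was 0.64 (SE 0.21) for SLC45A2. SLC23A1 had 1.17 (SE 0.43) and SLC39A14 had 0.97 (SE 0.38) in its first probe set, and the adjusted p of these 3 were 0.316, 0.316 and 0.321 in limma. For SLC1A1 the change was -1.93 (SE 0.93, 95% interval from -3.87 to 0.01, adjusted p 0.343 in limma). In this comparison the 6 smooth muscle markers also had negative values, with a median of -0.94 and none past the threshold, and the 5 fibroblast markers had a median of -0.59. Their part in the SLC1A1 value was not tested.

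In FO against control pairs none of 40 members passed limma's adjusted threshold, again against 0% of all probe sets, and none had an unadjusted p under 0.05, against 4.20% of all probe sets. For SLC1A1 the change was -0.24 with a 95% interval from -2.18 to 1.70. SLC45A2 had 0.42 (SE 0.21) and SLC39A14 had 0.74 (SE 0.38) in its first probe set.

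The diets were also compared in native cells alone, whose artery had not been stripped. In native CHL cells most solute carriers had lower signals than in native control cells, with 27 of 40 lower and a median of -0.14 over the members against -0.03 over all probe sets. Of all probe sets 46.1% were higher in this comparison. None had an adjusted p under 0.05 in limma, against 0.0111% of all probe sets, and 8 had an unadjusted p under 0.05, against 15.0%, of which 7 were lower, against 9.19%. Of the 8 tested metal carrier probe sets 7 were lower, with a median of -0.48.

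SLC12A4, which carries potassium and chloride out of cells, had signals of 292 to 596 in native CHL cells (median 428), 215 to 948 in native FO cells (median 513) and 459 to 1511 in native control cells (median 914). The CHL and control ranges overlapped at their ends, and the difference was -0.92 in CHL (SE 0.30, adjusted p 0.169 in limma) and -0.73 in FO (SE 0.30, adjusted p 0.454 in limma). SLC26A11 had signals of 44.8 to 141 in native CHL cells (median 76.9), 44.6 to 143 in native FO cells (median 82.7) and 69.7 to 305 in native control cells (median 173). Its difference was -0.90 in CHL (SE 0.30, adjusted p 0.183 in limma) and -0.91 in FO (SE 0.30, adjusted p 0.325 in limma). Both diets were set against the same 8 native control cultures. Those cultures are also the native side of the control pairs above, and so enter the comparisons of CHL and FO pairs with control pairs. Differences of 1 gene in these comparisons are therefore not independent of each other.

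SLC23A1 had signals of 83.8 to 271 in native CHL cells (median 118), 147 to 304 in native FO cells (median 196) and 115 to 778 in native control cells (median 339). Its difference was -1.10 in CHL (SE 0.37, adjusted p 0.184 in limma) and -0.59 in FO (SE 0.37, adjusted p 0.683 in limma). The SLC12 family probe set went the other way in CHL, with signals of 49.5 to 218 in native CHL cells (median 109) and 11.1 to 82.3 in native control cells (median 46.6). Its difference was 1.09 (SE 0.35, 2.13-fold, adjusted p 0.169 in limma), and the ranges overlapped. The same native CHL cultures enter its difference within CHL pairs, so the 2 values are not independent. SLC3A1 had -0.52 in CHL (SE 0.21, adjusted p 0.252 in limma) and -0.57 in FO (SE 0.21, adjusted p 0.380 in limma). SLC29A1 had -0.70 in CHL (SE 0.36) and -0.73 in FO (SE 0.36), and SLC1A1 had -0.10 and -0.31.

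In native FO cells 28 of 40 members were lower than in native control cells, with a median of -0.18 over the members against -0.03 over all probe sets, of which 45.7% were higher. None had an adjusted p under 0.05 in limma, against 0% of all probe sets, and 4 had an unadjusted p under 0.05, against 9.09%, all 4 lower, against 6.35%. The fourth, besides SLC26A11, SLC3A1 and SLC12A4, was the first probe set of SLC35F5, with -0.56 (SE 0.23, adjusted p 0.448 in limma). The other tested SLC35F5 probe set, whose levels had r = 0.40 with those of the first, was not among the 4. In native cells all 6 smooth muscle markers were higher in CHL than in control, with a median of 0.86. In FO 5 of the 6 were higher, with a median of 0.67, and none was past the threshold in either diet. Of the 5 fibroblast markers, 5 were higher in CHL, with a median of 1.08, and 4 in FO, with a median of 0.55, none past the threshold. The part of both marker lists in the member differences was not tested.

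**Figure D5:**
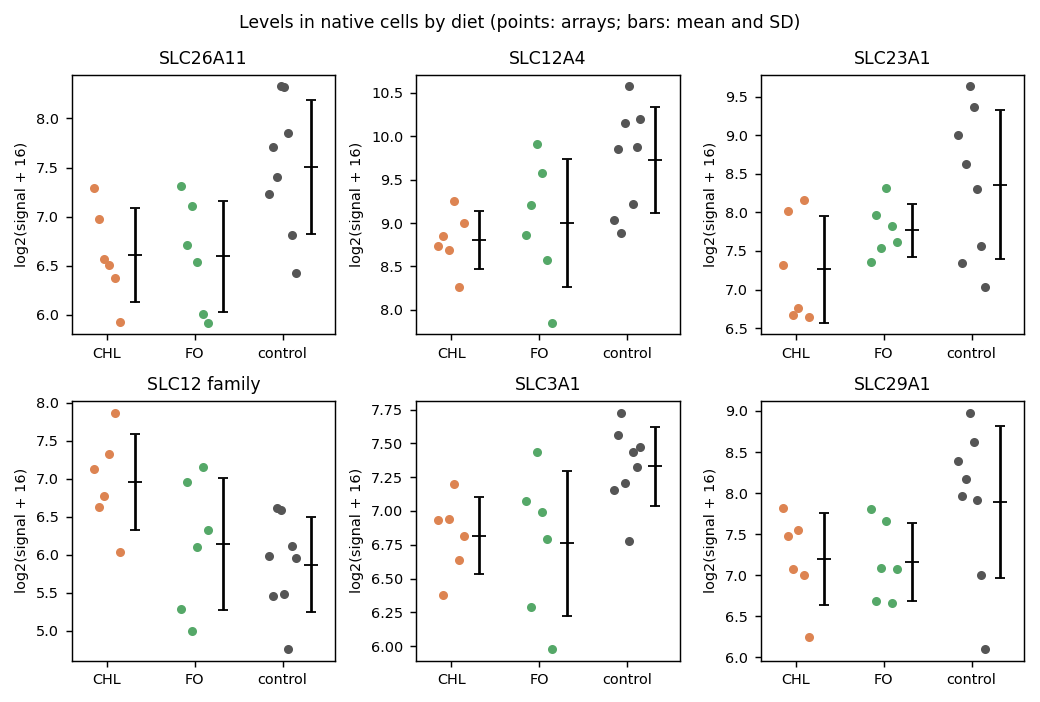
Levels of 6 members in native cells on the log2(signal + 16) scale, with CHL, FO and control from left to right. Points are cultures and bars give the mean and SD. The control points of SLC26A11, SLC12A4 and SLC23A1 lie mostly above those of CHL, the SLC12 family points lie mostly below, and every panel shows overlap.

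Genes that work beside the carriers were read by the same test. Of 24 listed transporter partners, pumps and channels 8 were tested, and none was past the adjusted threshold of limma in any of the 8 comparisons. In the mean of the 3 diets 1 of the 8 was higher and 1 lower at an unadjusted p under 0.05. Of 5 tested genes of the amino acid response and serine synthesis, PSAT1, an enzyme of serine synthesis, was lower in regenerated cells over the 3 diets (-0.83, SE 0.14, adjusted p 0.00250 in limma), and the other 4 did not pass. Of 9 tested genes of glycolysis and hypoxia and 3 of iron and zinc handling, none passed the adjusted threshold of limma in that comparison, while 2 and 0 had an unadjusted p under 0.05.

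The authors' deposited table of changed genes lists 9 member probe sets, 0.593% of its entries, each with a fold size between native and regenerated control cells. It is 1 of the 12 tables whose titles defined the members, so this count is not independent of the choice of members. Together the 12 tables list 46 members among 11814 probe sets with titles. In the authors' deposited table, sizes that mark a higher level in regenerated cells were 11.99 for SLC1A1, 2.41 for SLC7A7 and 1.81 for SLC3A1, the last for the probe set that did not pass here. Sizes that mark a lower level in regenerated cells were 3.24 for SLC29A1, 2.55 for SLC11A2 and 2.51 for SLC23A1 in the authors' deposited table. They were 2.25 for the second probe set of SLC39A14, 2.19 for SLC26A11 and 1.91 for SLC3A2. The authors' deposited table of probe sets over 2-fold for 1 FO comparison lists SLC1A1 at 3.99 higher in regenerated FO cells, and the 3 other tables of that kind list no member. The choice behind these lists is not given in the sources used here.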

How the data were processed

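Total RNA of 40 pig coronary endothelial cultures was measured on Affymetrix porcine arrays, per the labels' protocols. The authors deposited linear intensities, made with MAS5 per the submitters' processing notes, whose version is not stated there. MAS5 combines the probes of each array on its own and leaves more spread at low signal, and the number of arrays limits the precision. The authors' deposited tables give a fold size per listed probe set, whose method is not given in the sources used here, and these tables also gave gene titles and symbols. The table whose titles disagreed with the others was left out. Symbols were updated through a RefSeq gene table, and no coordinates or sequences were used. Counts cover all members, of which 1 is not reported here.

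Values were taken as log2(signal + 16). Of 24123 probe sets, 124 Affymetrix controls were left out, and so were those at or below the 25th percentile of mean level, which left 17999. The tests were those of limma 3.58.1 (functions lmFit, then eBayes), run under R 4.3.3, where the package data.table (1.17.8) read the files. The animal was a block in the comparison of regenerated with native cells, which used all 40 arrays, and diets in native cells on the 20 native arrays. In each fit the 3 diets shared 1 estimate of the spread per probe set. The SE, intervals and p-values of 1 diet therefore do not measure the spread of that diet's cultures alone. The mean of the 3 diets weighs each diet equally. P-values were two-sided and adjusted by Benjamini-Hochberg over all tested probe sets in each of 8 comparisons. Pairs come from the replicate numbers in the sample titles and the design text, which states that each animal gave both cultures. As a check, deviations of paired arrays from their group means correlated at a median of 0.51. The correlation exceeded 0.1 in 17 pairs of the 20 and was negative in control pairs 4 and 5 and FO pair 6. Because the labels of 6 pairs show no shared animal, p-values measure the spread between these cultures.

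The members, lists and tests were chosen with earlier results of these data known. Named members were those past the threshold in any comparison, the 4 of smallest p in each comparison, the 5 of largest SD, and a fixed set of endothelial transporters; a few others are named because their values were seen, among them the probe sets below the filter and SLC25A43, SLC35F5 and SLC18A2 in the comparison of probe sets. Alternatives were another pseudocount, filter, normalization or variance prior, no replicate block, left-out animals and the methods' paired t-test. On simulated data of the control comparison with 17999 probe sets, 80% of 100 changes of log2 size 1 and 100% of 100 of size 2 were recovered. In the simulation every pair shared an animal effect, probe sets varied independently and no array had degraded RNA. The data differ in these respects, so the simulated shares do not give the recovery in the real comparison. Correlations used 100000 permutations in Python 3.11.15 with numpy 2.4.6, pandas 2.3.3 and scipy 1.17.1, and figures used matplotlib 3.10.9.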

Additional observations from a re-analysis of the deposited data

Results flagged for a closer look

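In 9 of 66 sets of pair differences (22 probe sets in 3 diets), 1 pair lay far from the others of its diet by Dixon's gap criterion. Chance alone meets it in about 1 of 20 independent, unselected sets. These sets share pairs and sometimes a gene, and some were picked for a large SD or small p. The 9 of 66 therefore cannot be set against that share. FO pair 6, whose labels name different animals, accounted for 4 of the 9. Its regenerated minus native difference was 1.52 for SLC1A3, against -0.02 to 0.52 in the other FO pairs. It was 1.75 and 0.67 for the probe sets of SLC7A7, against -0.56 to 0.28 and -0.31 to -0.03. For the zinc carrier SLC39A4 it was 2.11, against -0.13 to 0.61.

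Both pairs with degraded RNA appeared as well. FO pair 3 had -2.39 for SLC26A11, against -0.25 to 0.80 in the other FO pairs, and control pair 6 had -2.08 for the first SLC35F5 probe set, against -0.17 to 0.35 in the other control pairs. The fatty acid carrier SLC27A4 had 1.38 in control pair 3, against -0.43 to 0.39, and -0.49 in CHL pair 4, against 0.41 to 0.78. SLC39A4 had 0.78 in control pair 5, against -0.06 to 0.33. The part of pairing and RNA quality in these values was not tested.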

How the results depend on the processing

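In the mean of the 3 diets, 4 solute carrier probe sets passed limma's threshold, against 2.67% of all probe sets. With the animals with degraded RNA left out 2 passed, against 1.36%. With only the same-number pairs 0 passed, against 0.144%, and with no replicate block 0 passed, against 0.322%. Without control pairs 4 and 5 and FO pair 6, an alternative chosen after seeing the data, 0 passed, against 0.65%. At an unadjusted p under 0.05 these last 3 settings gave 10, 9 and 11 of 40 members, against 9.63%, 12.5% and 15.2% of all probe sets. In the last setting SLC25A6 was -0.33, SLC3A1 0.39 and SLC1A1 1.19, against -0.37, 0.52 and 1.67 with all pairs. Leaving out each animal in turn gave 1 to 7, with 1 without CHL 3 (1.22% of all probe sets) or FO 1 (1.14%). There were 2 without CHL 2 (1.4%) or FO 6 (1.5%), and 7 without control 8 (6.21%). In control pairs 0 passed, and 1 with quantile normalization (0.361% of all probe sets). With each animal left out 0 to 9 passed. Of these settings, 8 passed without control 3 (8.05%), 9 without control 8 (13.3%), 3 without FO 6 (3.24%) and 1 without FO 3 (1.42%). In the other 6 comparisons 0 passed under every alternative run. Of 5164 values of single members under alternatives, 144 changed sign, none of a member past the threshold. The methods' t-test gave 3 members in CHL (6.78% of all probe sets), 5 in FO (5.01%) and 13 in control pairs (18.4%) at an unadjusted p under 0.05 and 0 after Benjamini-Hochberg adjustment. Because every pair holds both cultures, estimates are the same with and without the block by design, and only their p-values could change. Without it SLC1A1 was 1.67 with an adjusted p of 0.202 in limma. With only the same-number pairs it was 1.13 with an adjusted p of 0.466 in limma. Dim probe sets lie near background, where signals are least precise.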
